A study of Rattus norvegicus with 12 samples.

Results

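The genes described here are the proliferation and DNA replication genes of neonatal rat heart cell cultures. They are a list of 38 gene symbols covering the replication machinery, nucleotide supply, cyclins, mitotic kinases, the spindle and mitotic exit. Each gene was represented by the probe set of highest mean signal among those annotated to it and to no other gene. By that rule 36 of the 38 genes could be measured, out of 14217 named genes on the array. Rrm2 was annotated only on probe sets that carry several symbols, and Tpx2 was not matched to a probe set. All 36 measured genes passed the filter on low signal, as did 10080 of the 14217 named genes.

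The cells were primary ventricular cardiomyocytes from 1-day-old Wistar rats, separated from cardiac fibroblasts by how readily the cells attach to the dish. They were grown with 10% FCS and then kept for 24 h in OPTI-MEM, and each culture was exposed to its agent for 3 h. The agents were ethanol (the vehicle), CVZ (cortivazol, a synthetic glucocorticoid), COR (corticosterone, the main glucocorticoid of the rat) and ALD (aldosterone, the main mineralocorticoid), each alone or with RU486, which blocks the glucocorticoid receptor and was given first, at 10 µM. The 12 Affymetrix arrays formed 8 groups. Vehicle, CVZ, COR and ALD each had 1 array in each of 2 experiments, and RU486, CVZ with RU486, COR with RU486 and ALD with RU486 had 1 array each, run in the second experiment. The short exposure was chosen by the submitters to see the ligands' own effects before those of the genes they induce. The ligands' doses and the number of animals behind a culture are not given in the sources used here. The labels do not say that the experiments used separate cell preparations, so p-values measure the spread between these arrays, which may be technical.

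Genes of this kind are expressed in waves by cells that pass through the division cycle. Replication genes such as the Mcm helicase subunits are switched on by E2F factors as a cell commits to S phase, and the mitotic genes follow later, many of them through promoter elements called CCAAT boxes and cell cycle homology regions. Rat cardiomyocytes still divide at birth and leave the cycle soon afterwards, whereas cardiac fibroblasts go on dividing in culture.

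The deposited signals were divided so that the median probe set of every array was 1, and all signals below are on that scale. Replicate arrays of a group correlated at 0.934 to 0.944 on the log2 scale. The mean signal per array was 6.08 to 6.29 in the first experiment, 5.02 to 5.45 in the second without RU486 and 5.01 to 5.27 with RU486. Cardiomyocyte markers were strong on every array. Myh6, the alpha myosin heavy chain, had signals of 312 to 381 without RU486 and 267.5 to 306.7 with it. Fkbp5, a target of the glucocorticoid receptor, showed that the ligands had acted: its log2 difference from vehicle was 4.54 with CVZ, 3.87 with COR and 2.69 with ALD.

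The promoters of the set share elements that the choice of genes did not use. The windows came from RefSeq (build GRCr8) and ran from 250 bases before to 50 bases after the start of the gene. A window was matched for 31 of the 36 genes. In 14 of these 31 the window's start was also the first base of the gene in the RefSeq gene table. In the others it was another position, and positions below count from the window's start. Aurkb, Ccna2, Ccne2, Mcm4 and Ube2c were not matched. Both strands were searched for each element, and a match is a description of letters, not a bound site. The cell cycle homology region (TTTGAA or TTCGAA) was found in 15 of 31 windows, or 48.4%, against 19.5% of the 27457 windows in the table. The CCAAT box was found in 22 of 31 (71.0%), against 37.7% of all windows. An E2F site (TTTGGCGC, TTTCCCGC or TTTGCCGC) was found in 6 of 31 (19.4%), against 1.96% of all. A cell cycle homology region and a CCAAT box occurred together in 13 windows (41.9%), against 7.83% of all. A full glucocorticoid response element (AGAACA, any 3 bases, TGTTCT) was found in 0 of the 31 windows and in 2 of all 27457 (0.00728%). An element this rare would be absent from nearly any 31 windows, so its absence says nothing about the set. In 1 place matches of different elements shared bases.

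The elements were divided by the genes' roles. Among the 18 mitotic genes with a window, counting Mki67 and Top2a with them, 12 held a cell cycle homology region, 15 a CCAAT box and 0 an E2F site. Among the 12 replication and nucleotide supply genes the counts were 3, 7 and 6. The single S phase cyclin with a window, Ccne1, held no match to any of these elements. The 150 bases that precede the start are printed below for 9 genes, 5′ to 3′ on the gene's own strand, with matches in capitals (ATTGG is the CCAAT box read on the other strand). The first 4 are mitotic genes that were among the most changed between the experiments, Birc5 is a mitotic gene that did not pass the test, Mcm6, Gins1 and Tyms are replication and nucleotide genes that passed it, and Mcm5 is a replication gene that did not.
Ccnb1 (chr2:33655226-33655375, minus strand): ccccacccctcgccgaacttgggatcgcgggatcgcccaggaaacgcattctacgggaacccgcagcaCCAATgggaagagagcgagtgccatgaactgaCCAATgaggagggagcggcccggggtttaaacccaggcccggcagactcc
Ccnb2 (chr8:79981659-79981808, minus strand): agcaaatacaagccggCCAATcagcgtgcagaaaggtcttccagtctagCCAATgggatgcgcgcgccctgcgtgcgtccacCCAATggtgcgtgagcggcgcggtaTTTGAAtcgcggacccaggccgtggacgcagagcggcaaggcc
Cdk1 (chr20:19265143-19265292, plus strand): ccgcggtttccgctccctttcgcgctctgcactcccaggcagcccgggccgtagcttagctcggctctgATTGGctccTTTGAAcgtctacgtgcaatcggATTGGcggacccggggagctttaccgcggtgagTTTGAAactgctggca
Prc1 (chr1:143659331-143659480, plus strand): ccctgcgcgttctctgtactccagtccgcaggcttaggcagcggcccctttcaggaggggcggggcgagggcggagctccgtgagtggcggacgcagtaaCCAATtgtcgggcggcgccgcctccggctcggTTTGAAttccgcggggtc
Birc5 (chr10:103571996-103572145, plus strand): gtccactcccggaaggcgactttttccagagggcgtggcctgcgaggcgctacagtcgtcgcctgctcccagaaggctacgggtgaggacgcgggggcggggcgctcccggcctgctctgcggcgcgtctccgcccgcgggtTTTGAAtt
Mcm6 (chr13:42404353-42404502, minus strand): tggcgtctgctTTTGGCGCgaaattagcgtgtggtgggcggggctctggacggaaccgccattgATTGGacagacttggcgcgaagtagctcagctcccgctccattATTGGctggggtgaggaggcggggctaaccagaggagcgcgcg
Gins1 (chr3:160184770-160184919, plus strand): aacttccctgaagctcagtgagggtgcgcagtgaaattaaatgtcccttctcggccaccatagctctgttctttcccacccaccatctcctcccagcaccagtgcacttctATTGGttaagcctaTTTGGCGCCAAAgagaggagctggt
Tyms (chr9:120776084-120776233, minus strand): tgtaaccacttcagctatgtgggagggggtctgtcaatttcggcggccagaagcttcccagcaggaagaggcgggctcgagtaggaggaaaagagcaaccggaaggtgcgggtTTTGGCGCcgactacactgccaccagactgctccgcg
Mcm5 (chr19:13488663-13488812, plus strand): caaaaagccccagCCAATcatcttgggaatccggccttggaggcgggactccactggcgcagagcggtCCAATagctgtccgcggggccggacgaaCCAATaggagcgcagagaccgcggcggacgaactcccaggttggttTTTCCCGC
Genes that passed the test and genes that did not both carried such matches. In Cdk1 a homology region began at -72 and another at -16 from the start, and in Prc1 one began at -18.

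The set differed most between the 2 experiments. In the second experiment, 32 of the 36 genes were lower than in the first, 0 were higher and 4 did not pass the test (limma, Benjamini-Hochberg adjusted p below 0.05 over all 18625 tested probe sets, the 4 conditions run in both experiments). Of all tested probe sets 28.2% were called lower and 10.7% higher in this comparison, 38.9% in all, against 88.9% of the set. The median log2 difference of the set was -0.83, against -0.10 for all tested probe sets. The 32 genes were lower by 1.35-fold to 3.24-fold, and 13 of them by at least 1 on the log2 scale, a size that 3.45% of tested probe sets reached. In bulk RNA, fewer cycling cells and less of these transcripts per cell cannot be told apart. A difference between the runs in cell mix or in technical handling cannot be told apart from these either. Each side of this comparison is 1 experiment, so its p-values measure consistency over the 4 conditions, not a difference repeated between experiments.

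The difference was present in each condition. The median over the 36 genes was -0.96 between the vehicle arrays, -0.77 between the CVZ arrays, -0.82 between the COR arrays and -0.83 between the ALD arrays, where all tested probe sets had medians of -0.18, -0.10, -0.12 and -0.07. Between 34 and 36 of the 36 genes were lower in the second experiment in any of these pairs, and 34 were lower in all 4 pairs. Of all tested probe sets 64.6%, 57.9%, 60.2% and 55.6% were lower in the vehicle, CVZ, COR and ALD pairs. For 30 genes (83.3%) the 4 arrays of the first experiment all lay above the 4 arrays of the second without RU486, which was so for 24.2% of tested probe sets. Those 30 also lay above all 8 arrays of the second experiment, against 20.5% of tested probe sets. The exceptions were Ccne1, Birc5, Mcm2, Mcm5, Kif23 and Fen1. The median signal of the 36 genes on an array was 3.82 to 4.13 in the first experiment, 2.07 to 2.19 in the second without RU486 and 1.83 to 2.03 with RU486.

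**Figure D1:**
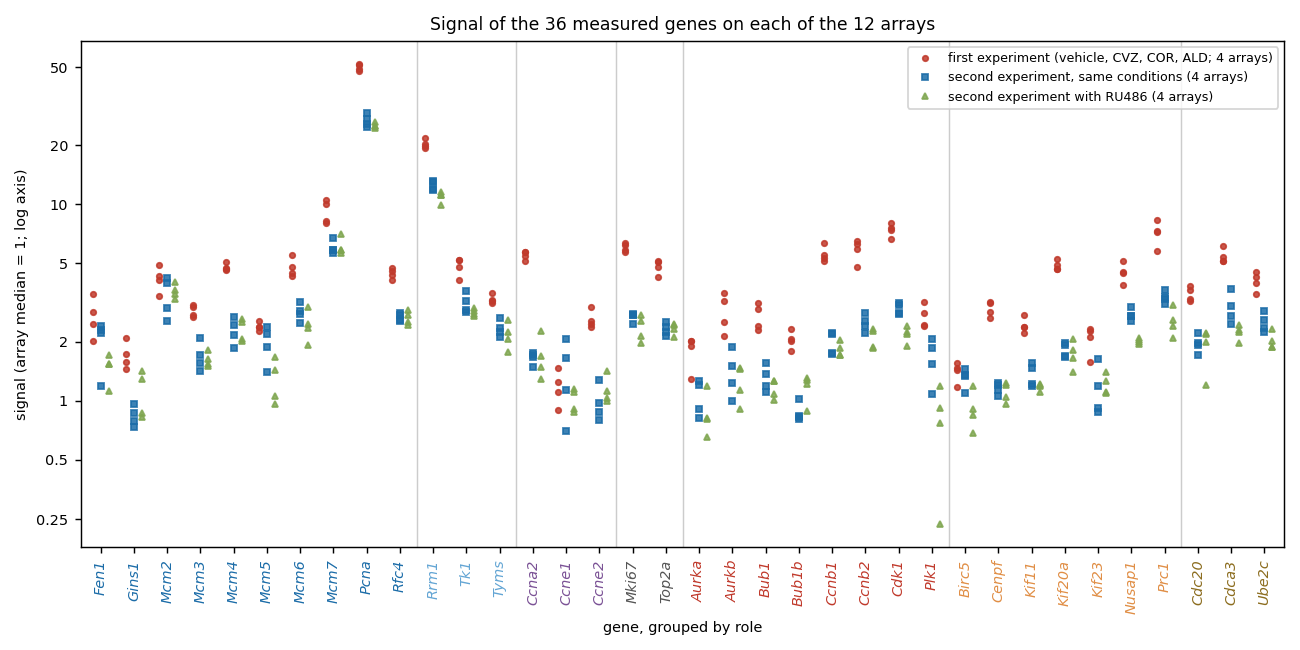
Signal of each of the 36 genes (log axis, median probe set of the array = 1) on each of the 12 arrays, with circles for the first experiment, squares for the second without RU486 and triangles for the second with RU486, and genes grouped by role. For 30 genes the first experiment's circles lie above all 8 points of the second, and Ccne1 and Birc5 show mixed points.

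The S phase cyclins held the gene with the largest difference of the set and one without a detectable difference. Ccna2, cyclin A2, which acts in S phase and at entry into mitosis, had signals of 5.73 (vehicle), 5.48 (CVZ), 5.14 (COR) and 5.71 (ALD) in the first experiment and 1.68, 1.76, 1.71 and 1.48 in the second. All first arrays were high and all second arrays low, and the log2 difference was -1.70 ± 0.14 (SE, adjusted p = 1.8e-07, 95% interval -1.99 to -1.41). Ccne2, cyclin E2, which drives entry into S phase, had 2.39, 2.46, 2.54 and 3.01 in the first experiment and 0.874, 0.973, 0.794 and 1.28 in the second, without overlap (-1.36 ± 0.18, adjusted p = 2.7e-05). Its paralog Ccne1 had 0.899, 1.47, 1.24 and 1.10 in the first experiment and 1.65, 2.07, 0.700 and 1.14 in the second. Those ranges overlapped, and Ccne1 did not pass the test (0.14 ± 0.25, adjusted p = 0.69, interval -0.39 to 0.68). The difference between Ccne1 and Ccne2 was not itself tested.

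All 8 mitotic kinases and cyclins were lower in the second experiment, with a median of -1.08. Ccnb1, cyclin B1, which activates Cdk1 for mitosis, had signals of 5.16 (vehicle), 5.35 (CVZ), 5.54 (COR) and 6.34 (ALD) in the first experiment and 1.74, 2.21, 1.74 and 2.20 in the second. The lowest first array lay far above the highest second array (-1.48 ± 0.13, adjusted p = 5.1e-07). Cdk1, the mitotic kinase itself, had 7.59, 8.03, 6.69 and 7.40 in the first experiment and 2.81, 2.75, 3.13 and 3.07 in the second (-1.32 ± 0.12, adjusted p = 6.4e-07). Ccnb2, cyclin B2, had 5.91, 6.26, 6.52 and 4.78 and then 2.55, 2.79, 2.40 and 2.22 (-1.21 ± 0.12, adjusted p = 2e-06). For both genes the groups were apart. The promoters of Cdk1 and Ccnb2 printed above hold a CCAAT box and a cell cycle homology region, whereas that of Ccnb1 holds CCAAT boxes only. Bub1b, a spindle checkpoint component, had 2.31, 2.01, 1.78 and 2.05 and then 0.840, 1.03, 0.812 and 0.828 (-1.16 ± 0.19, adjusted p = 0.00023). Its partner Bub1 fell by 1.01, Aurkb of the chromosomal passenger complex by 1.00, Aurka, a centrosome kinase, by 0.75 and Plk1, the polo-like mitotic kinase, by 0.73 on the log2 scale. The signals of Bub1 ranged from 2.29 to 3.16 in the first experiment and from 1.11 to 1.55 in the second, those of Aurkb from 2.13 to 3.54 and from 0.997 to 1.89. Aurka came closest to an overlap, with 1.30 to 2.02 and then 0.819 to 1.26, and Plk1 had 2.41 to 3.18 and then 1.08 to 2.06. The weakest calls of this group were lost when a condition was left out. With either array of a condition removed, that condition no longer entered this comparison. Without a vehicle array Aurka stood at -0.64. Without a COR array Aurka stood at -0.62 and Plk1 at -0.47.

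Among the 7 spindle and cytokinesis genes 6 were lower, with a median of -0.83. Kif20a, a kinesin of cytokinesis, had signals of 4.67 (vehicle), 5.30 (CVZ), 4.69 (COR) and 4.94 (ALD) in the first experiment and 1.69, 1.92, 1.97 and 1.66 in the second (-1.40 ± 0.13, adjusted p = 1.1e-06). Cenpf, a kinetochore protein, had 3.15, 3.17, 2.83 and 2.65 and then 1.14, 1.21, 1.23 and 1.05 (-1.30 ± 0.17, adjusted p = 2.3e-05). Prc1, which bundles microtubules of the central spindle, had 8.33, 7.23, 7.30 and 5.78 and then 3.68, 3.30, 3.37 and 3.10 (-1.06 ± 0.11, adjusted p = 2.7e-06). Each of these genes separated the experiments without overlap. Kif23, a further kinesin of cytokinesis, fell by 0.83, Kif11, which separates the spindle poles, by 0.82 and Nusap1, a microtubule-binding protein, by 0.71. Kif23 overlapped between the experiments (1.58 to 2.31 and 0.874 to 1.63), whereas Kif11 (2.22 to 2.75 and 1.19 to 1.55) and Nusap1 (3.91 to 5.17 and 2.55 to 3.01) did not. Birc5, survivin, a passenger complex subunit, was the exception, with 1.44, 1.17, 1.46 and 1.55 in the first experiment and 1.36, 1.45, 1.34 and 1.10 in the second. Its ranges overlapped and its difference was -0.09 ± 0.21 (adjusted p = 0.76, interval -0.54 to 0.35).

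The 3 mitotic exit genes were lower, with a median of -0.82. Cdca3, a trigger of mitotic entry through protein degradation, fell by 0.87 (± 0.14, adjusted p = 0.00015), Cdc20, an activator of the anaphase-promoting complex, by 0.82 (± 0.15, adjusted p = 0.00043) and Ube2c, its ubiquitin-conjugating enzyme, by 0.68 (± 0.13, adjusted p = 0.00063). Their signals did not overlap: Cdca3 had 5.15 to 6.16 in the first experiment and 2.46 to 3.71 in the second, Cdc20 had 3.20 to 3.85 and 1.72 to 2.21, and Ube2c had 3.50 to 4.53 and 2.25 to 2.88. When the probe sets of a gene were averaged, Cdc20 stood at -0.41 and did not pass (adjusted p = 0.23). The differences of its other 4 probe sets ran from -1.24 to 0.72, and the probe set at 0.72 was below the filter on low signal. Both chromatin and proliferation marks fell. Mki67, the Ki-67 antigen used to count cycling cells, had 6.20 (vehicle), 5.72 (CVZ), 6.37 (COR) and 5.83 (ALD) in the first experiment and 2.47, 2.72, 2.72 and 2.76 in the second (-1.16 ± 0.12, adjusted p = 2.2e-06). Top2a, the topoisomerase of dividing cells, had 4.27, 5.10, 5.16 and 4.79 and then 2.51, 2.36, 2.24 and 2.14 (-1.04 ± 0.13, adjusted p = 1.5e-05). The arrays of the experiments were apart for both.

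Of the 10 replication genes 8 were lower, with a median of -0.73. Mcm4, a subunit of the replicative helicase, had 5.07 (vehicle), 4.75 (CVZ), 4.69 (COR) and 4.64 (ALD) in the first experiment and 2.44, 1.86, 2.16 and 2.66 in the second (-1.06 ± 0.13, adjusted p = 1.5e-05, interval -1.34 to -0.78). Its partner subunits were less far apart. Mcm7 had 8.04, 8.19, 10.0 and 10.5 in the first experiment and 5.88, 5.83, 5.63 and 6.75 in the second (-0.60 ± 0.10, adjusted p = 0.00017), and Mcm3 and Mcm6 differed by -0.75 and -0.74. Mcm3 had 2.66 to 3.08 in the first experiment and 1.41 to 2.10 in the second, and Mcm6 had 4.31 to 5.50 and 2.49 to 3.19, both without overlap. Mcm2 had 4.92, 3.40, 4.33 and 4.10 in the first experiment and 4.21, 2.96, 2.53 and 3.97 in the second. It was lower in each condition, but its ranges overlapped and it did not pass (-0.31 ± 0.13, adjusted p = 0.079, interval -0.58 to -0.03). Mcm5 had 2.37, 2.56, 2.28 and 2.38 and then 1.87, 2.38, 1.39 and 2.19, and also did not pass (-0.31 ± 0.17, adjusted p = 0.16). The intervals of Mcm4 and Mcm2 do not meet, although they are subunits of one complex, and this difference between the genes was not tested.

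Pcna, the sliding clamp of the polymerases, had the smallest adjusted p of the set. Its signals were 51.4 (vehicle), 52.0 (CVZ), 48.7 (COR) and 48.0 (ALD) in the first experiment and 24.8, 25.7, 29.2 and 27.0 in the second (-0.91 ± 0.07, adjusted p = 9.6e-08, interval -1.05 to -0.76). Gins1, a subunit of the GINS helicase complex, fell by 0.97 (± 0.21, adjusted p = 0.0019) and Rfc4, a clamp loader subunit, by 0.72 (± 0.12, adjusted p = 0.00022). Gins1 had 1.44 to 2.10 and then 0.732 to 0.964, and Rfc4 had 4.12 to 4.73 and then 2.56 to 2.81. Fen1, which trims Okazaki fragments, differed by -0.43 ± 0.16 (adjusted p = 0.044), and leaving out any vehicle, CVZ or ALD array removed this call (-0.33 to -0.50, adjusted p 0.053 to 0.19). The 3 nucleotide supply genes were lower. Rrm1, the large subunit of ribonucleotide reductase, had 21.7, 19.4, 19.7 and 20.3 in the first experiment and 11.9, 13.0, 13.2 and 12 in the second (-0.69 ± 0.08, adjusted p = 6.1e-06). Tk1, thymidine kinase, fell by 0.61 (± 0.13, adjusted p = 0.0017) and Tyms, thymidylate synthase, by 0.49 (± 0.13, adjusted p = 0.0093). Tk1 had 4.14 to 5.20 and then 2.83 to 3.63, and Tyms had 3.14 to 3.53 and then 2.12 to 2.65, so the arrays of the experiments were apart for all 3. In the printed promoters the E2F sites lie in Mcm6, Gins1, Tyms and Mcm5, and the last of these was not called.

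**Figure D2:**
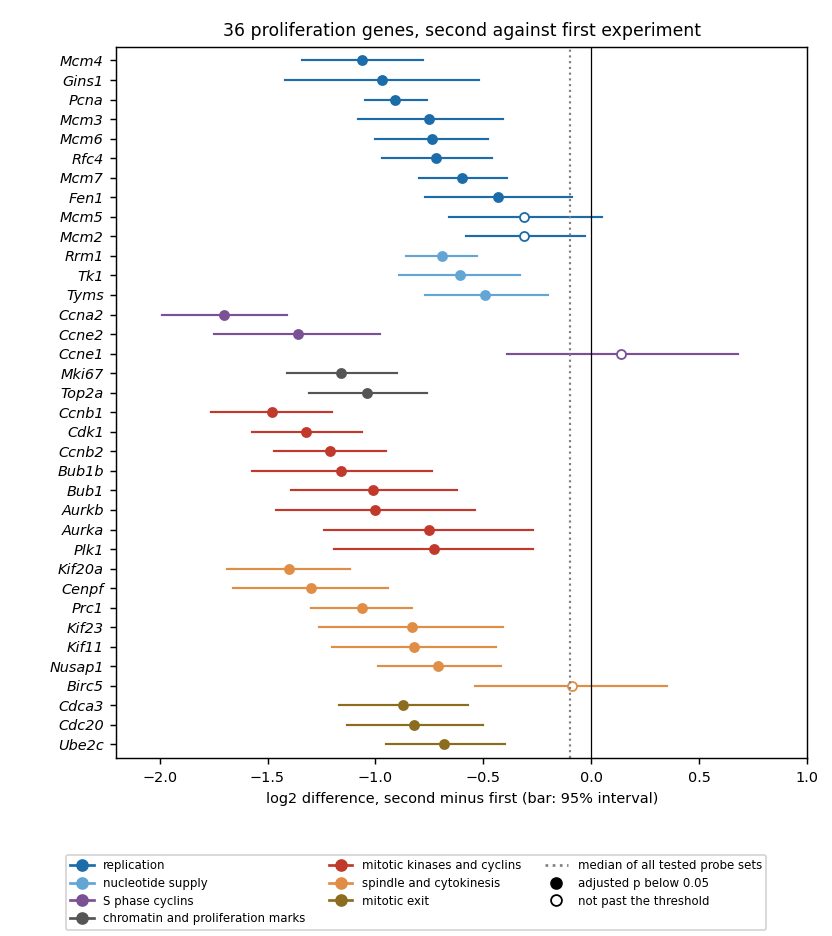
Log2 difference of the second minus the first experiment for the 36 genes, with 95% intervals, coloured by role; filled points passed an adjusted p of 0.05 and the dotted line is the median of all tested probe sets (-0.10). Ccna2 stands lowest at -1.70 and Ccne1 highest at 0.14.

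The mitotic genes were further apart than the replication genes. The 18 genes of the kinase, spindle and exit groups had a median of -0.94 (17 lower, range -1.48 to -0.09), and the 13 replication and nucleotide genes a median of -0.69 (11 lower, range -1.06 to -0.31). The medians were in this order in each condition: -1.12 and -0.65 with vehicle, -0.88 and -0.63 with CVZ, -1.08 and -0.74 with COR, -0.92 and -0.76 with ALD. This order is a description and was not tested.

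The scaling of the arrays moved the size of these differences but not their place against other genes. Quantile normalization gave 31 of 36 genes lower, with a median of -0.73 against 0.03 for all tested probe sets, and trimmed-mean scaling gave 28 lower, with -0.63 against 0.10. The set's median relative to all tested probe sets was -0.72, -0.75 and -0.72 with the deposited scaling, quantile and trimmed-mean scaling. The share of lower among all calls was 72.5% with the deposited scaling, 47.7% with quantile and 40.6% with trimmed-mean scaling.

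Other genes of the same machinery moved with the set. Of 30 other mitotic genes that passed the filter, 24 were lower and 0 higher in the second experiment, with a median of -0.98. Ttk, a checkpoint kinase, fell by 1.92, Spc25, a kinetochore protein, by 1.80, Cks2, a Cdk-binding protein, by 1.32 and Tacc3, a spindle protein, by 1.26. Of 30 other replication genes, 17 were lower and 1 higher, with a median of -0.47. Pola1, the catalytic subunit of polymerase alpha, fell by 1.31, Chaf1a, a chromatin assembly factor, by 1.30, Gmnn, the licensing inhibitor geminin, by 0.92 and Cdt1, a licensing factor, by 0.90. Slbp, which binds the stem-loop of histone mRNAs, was the one that rose (0.59 ± 0.14, adjusted p = 0.0043).

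Regulators of the cycle were called in both directions. Of 30 that passed the filter, 11 were lower and 5 higher, 53.3% in all, with a median of -0.24. Of all tested probe sets 28.2% were lower and 10.7% higher, 38.9% in all. Ccnd1, cyclin D1, which links growth signals to the cycle, had signals of 18.3 (vehicle), 8.53 (CVZ), 13.0 (COR) and 12.6 (ALD) in the first experiment and 3.46, 2.47, 2.23 and 2.06 in the second (-2.30 ± 0.13, adjusted p = 7.2e-09). That is a larger difference than any gene of the set showed. Cdkn1a, the Cdk inhibitor p21, had 7.32, 20.4, 13.7 and 9.87 in the first experiment and 12.4, 37.4, 26.8 and 19.2 in the second, and rose in each condition (0.89 ± 0.07, adjusted p = 2.9e-07). Other regulators that rose were Lin52, a DREAM complex subunit (0.63), E2f4, a repressor E2F (0.39), and Fzr1, an activator of the anaphase-promoting complex (0.34). Myc, a growth regulator, fell by 0.67 (adjusted p = 0.0022), Cdkn1b, the inhibitor p27, by 0.58 and E2f5, a repressor E2F, by 0.52. The activators E2f1 (0.13, adjusted p = 0.64), Foxm1 (-0.12, adjusted p = 0.74) and Mybl2 (-0.39, adjusted p = 0.28) did not pass the test, nor did Fkbp5 (0.22, adjusted p = 0.082).

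Fibroblast markers were lower in the second experiment as well. Of 11 fibroblast markers 10 were called lower and 0 higher, against 28.2% and 10.7% of all tested probe sets, with a median of -1.31, and their summed signal was 370 to 453 in the first experiment, 196 to 206 in the second and 179 to 193 with RU486. The matricellular protein Postn fell by 1.75, the proteoglycan Dcn by 1.65, the growth factor receptor Pdgfra by 1.62 and the collagen Col1a1 by 0.68, and 0 of the 11 markers were at a signal of 0. Of 14 cardiomyocyte markers 6 were lower and 3 higher, with a median of -0.08 and summed signals of 2850 to 3080 and 2670 to 3000. Endothelial markers had 3 of 7 lower (median -0.52, summed signal 20.6 to 36.6 and 12.4 to 25.2) and macrophage markers 2 of 7 lower (0.03, 17.5 to 22.4 and 16.6 to 18.8). Smooth muscle markers had 3 of 8 lower and 1 higher (0.03, 125 to 132 and 108 to 122), and epicardial markers 0 of 5 in either direction (-0.25, 5.64 to 7.21 and 4.54 to 5.05). The summed signal of the 36 proliferation genes was 203 to 210 in the first experiment and 110 to 112 in the second. The part of the fibroblast markers' difference in the result for the proliferation genes was not tested.

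**Figure D3:**
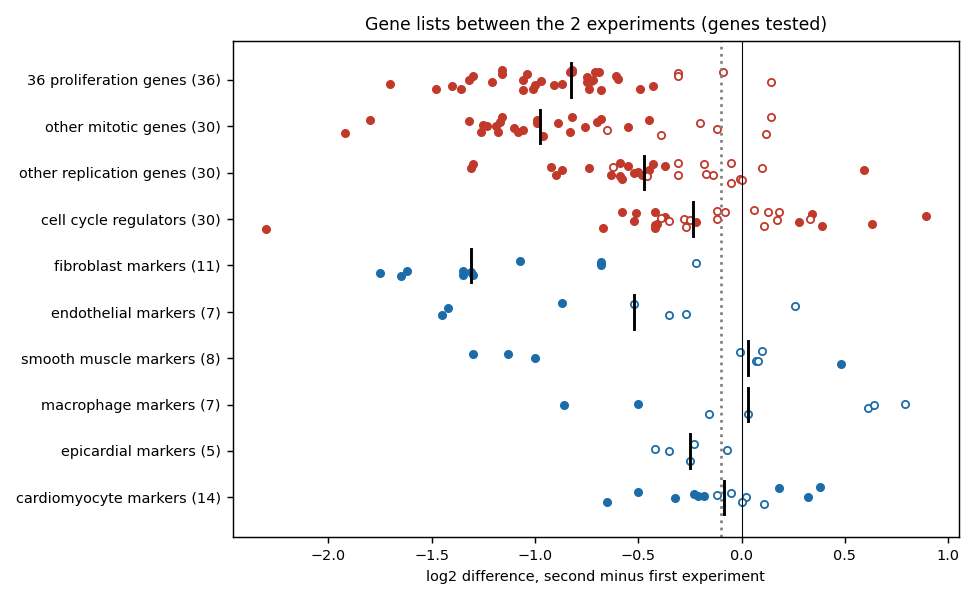
Log2 difference of the second minus the first experiment for each gene (point) of the proliferation set, the lists of other cell cycle genes and the cell type marker lists; filled points passed an adjusted p of 0.05, black bars are list medians and the dotted line is the median of all tested probe sets. The proliferation set (-0.83), other mitotic genes (-0.98) and fibroblast markers (-1.31) lie low, and cardiomyocyte markers lie near 0.

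The ligands changed almost none of the set at 3 h. With CVZ 1 of the 36 genes was called, and it was lower; of all tested probe sets 7.96% were called in either direction and 3.19% lower. With COR 0 of 36 were called, against 3.39%, and with ALD 0 of 36, against 0.950%. The medians of the set were 0.02, -0.01 and -0.03. At an unadjusted p below 0.05 in the limma fit, CVZ had 2 genes (5.56%, against 18.2% of all tested), COR 1 gene (2.78%, against 13.1%) and ALD 1 gene (2.78%, against 9.15%). The 95% interval lay wholly between -1 and 1 on the log2 scale for 34 genes with CVZ, 35 with COR and 36 with ALD. These comparisons share their vehicle arrays.

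Fen1 was the gene called with CVZ. Its signals were 3.51 with vehicle and 2.02 with CVZ in the first experiment, and 2.29 and 1.18 in the second. CVZ was the lower array in both, by -0.77 and -0.91, and the fitted log2 difference was -0.84 ± 0.23 (adjusted p = 0.031, interval -1.33 to -0.36). The call was lost without the first vehicle array (-0.73, adjusted p = 0.24), without the second (-0.96, 0.093) and without the second CVZ array (-0.64, 0.29). It was also lost without a filter on low signal (adjusted p = 0.080), without a mean-variance trend (0.089) and without the experiment as a block (0.56). The other genes past an unadjusted p of 0.05 were Mcm2 with CVZ (-0.51) and with COR (-0.45, adjusted p = 0.29), and Prc1 with ALD (-0.38, adjusted p = 0.46).

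Values with the ligands are given for 3 genes that separated the experiments. Cdk1 differed from vehicle by 0.03 with CVZ, -0.01 with COR and 0.04 with ALD (± 0.17 each), and Mki67 by 0.01, 0.09 and 0.03 (± 0.17). Pcna, among the most precisely measured, differed by 0.03, 0.08 and 0.01 (± 0.10), with intervals of -0.17 to 0.24, -0.13 to 0.28 and -0.19 to 0.22. Others lay further from 0 without passing, such as Ccne2 (0.42 ± 0.26, adjusted p = 0.70) and Ccnb1 (0.31 ± 0.19, adjusted p = 0.69) with ALD. Over the set, the direction was the same in both experiments for 18 genes with CVZ, 12 with COR and 15 with ALD.

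**Figure D4:**
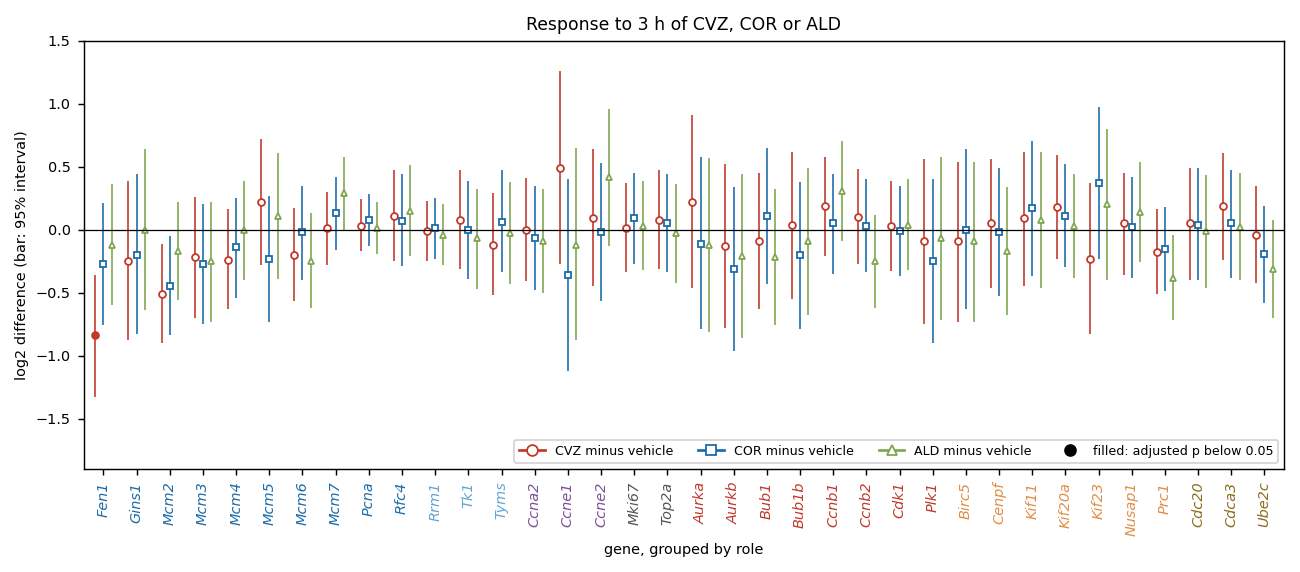
Log2 difference from vehicle for the 36 genes with CVZ, COR and ALD (points, with 95% intervals; filled where the adjusted p was below 0.05). The points lie between -0.84 and 0.49, and Fen1 with CVZ (-0.84) is the filled one.

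The ligands were also set against each other, in 3 pairs, with p-values adjusted over all tested probe sets of a pair. CVZ and COR are both glucocorticoids, COR the natural steroid and CVZ a synthetic one, and ALD is the mineralocorticoid. Their doses are not given in the sources used here, so it is not known whether the doses matched. For CVZ against COR 0 of 36 genes were called (0.966% of all tested), for CVZ against ALD 0 (4.25%) and for COR against ALD 0 (0.295%). At an unadjusted p below 0.05 in limma the counts were 2, 1 and 0: Ccne1 was higher by 0.85 with CVZ than with COR (interval 0.09 to 1.62, adjusted p = 0.44), and Fen1 differed by -0.57 between CVZ and COR (adjusted p = 0.40) and by -0.72 between CVZ and ALD (adjusted p = 0.11). The interval of the difference lay between -1 and 1 for 32, 32 and 35 of the 36 genes.

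A minority of the cycle regulators passed the test with the ligands, though a larger share than of all tested probe sets. Of 30, CVZ raised 3 and lowered 4 (23.3%), COR raised 2 and lowered 2 (13.3%), and ALD raised 1 (3.33%). The shares of all tested probe sets were 7.96%, 3.39% and 0.950%. Of the 30 other replication genes 0 were called with any ligand in limma (6, 1 and 1 at an unadjusted p below 0.05). Of the 30 other mitotic genes 1 was called with CVZ, the same gene with COR and 0 with ALD (2, 2 and 1 at an unadjusted p below 0.05 in limma). Cdkn1a rose by 1.53 with CVZ (adjusted p = 7.4e-08), 1.00 with COR (1.6e-05) and 0.53 with ALD (0.020), and vehicle was the lowest of the 4 arrays without RU486 in both experiments. Ccnd1 fell by 0.78 with CVZ (adjusted p = 0.015), and its values were -0.55 with COR (0.17) and -0.63 with ALD (0.19), which did not pass. CVZ also lowered Lin9, a DREAM complex subunit, by 1.32 (adjusted p = 0.0011), Cdkn1b by 0.71 and Btg1, an antiproliferative gene, by 0.70. It raised the Cdk inhibitor Cdkn1c by 0.58 and E2f6, a repressor E2F, by 0.41. COR raised Cdkn1c by 0.50, and lowered Cdkn1b by 0.46 and Btg1 by 0.32. The mitotic gene called was Cdc25b, a phosphatase that activates Cdk1, higher by 1.19 with CVZ and by 1.26 with COR.

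With RU486, 1 of the 36 genes was called over the 4 backgrounds (vehicle, CVZ, COR and ALD), and it was lower. Of all tested probe sets 4.02% were called, 1.85% higher and 2.16% lower. The set's median was -0.15, against 0.01 for all tested probe sets. Below 0 lay 28 of 36 genes, against 8788 of all 18625 tested probe sets. At an unadjusted p below 0.05, 10 genes (27.8%) stood in this comparison, against 16.1% of all tested. Each RU486 group had 1 array, in the second experiment, taken to vary like the other groups.

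Plk1 was the gene called. Its signals in the second experiment were 2.06 (vehicle), 1.54 (CVZ), 1.08 (COR) and 1.86 (ALD) without RU486, and 0.771, 1.19, 0.236 and 0.915 with it. The RU486 array was lower in every background, most with COR, and the CVZ array with RU486 lay above the COR array without it. The signal of 0.236 with COR and RU486 was below the level that the filter on low signal asked of a gene's mean (0.63). The fitted difference was -1.15 ± 0.22 (adjusted p = 0.0059, interval -1.61 to -0.68), with -1.34, -0.36, -1.91 and -0.97 in the 4 backgrounds. Without the COR with RU486 array it was -0.76 and did not pass (adjusted p = 0.11). In the second experiment alone, with the CVZ, COR and ALD backgrounds only, it was -1.08 and did not pass (adjusted p = 0.14). It also did not pass without a mean-variance trend (adjusted p = 0.16) or without the block (-1.51, adjusted p = 0.19).

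For 5 genes (13.9%) the 4 RU486 arrays all lay below the other 4 arrays of the second experiment, against 3.60% of tested probe sets. Cdk1 had signals of 2.81 (vehicle), 2.75 (CVZ), 3.13 (COR) and 3.07 (ALD) without RU486 and 2.40, 2.25, 1.90 and 2.19 with it (-0.42 ± 0.12, adjusted p = 0.067). Prc1 had 3.68, 3.30, 3.37 and 3.10 and then 2.58, 3.07, 2.41 and 2.09 (-0.41, adjusted p = 0.057). Nusap1 had 2.55, 2.69, 3.01 and 2.70 and then 2.00, 2.09, 2.05 and 1.95 (-0.42, adjusted p = 0.10). The groups were apart for each of these, yet the fit did not call them. Rrm1 (-0.19, adjusted p = 0.24) and Cdca3 (-0.39, adjusted p = 0.15) were the other genes of this kind. Mcm5 (-0.59 ± 0.17, adjusted p = 0.062) and Birc5 (-0.52, adjusted p = 0.23), both uncalled between the experiments, had values below 0 here. With RU486, 5 of 14 cardiomyocyte markers were lower (median -0.17, summed signal 2420 to 2710 against 2670 to 3000), and 2 of 8 smooth muscle markers (median -0.40). Of all tested probe sets 2.16% were called lower. In the other lists 1 of 7 endothelial markers was lower (median -0.19). Fibroblast markers had 0 of 11 called (median -0.11), macrophage markers 0 of 7 and epicardial markers 0 of 5. The part of these markers in the result was not tested.

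**Figure D5:**
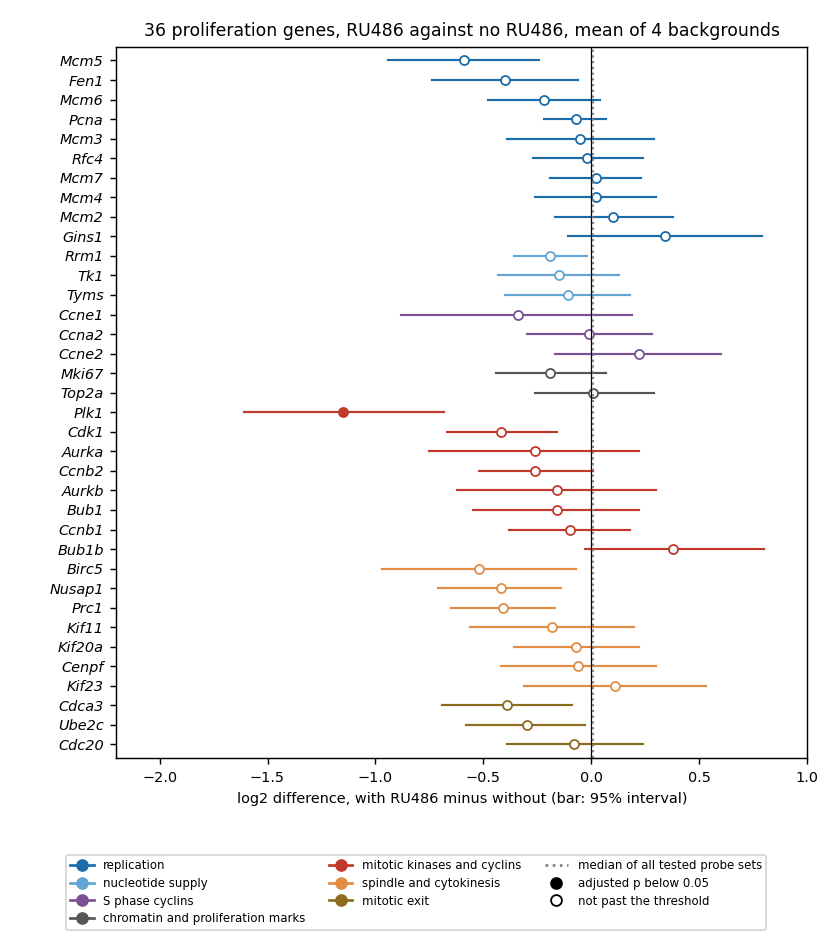
Log2 difference with RU486 minus without, mean of the 4 backgrounds, for the 36 genes, with 95% intervals; filled points passed an adjusted p of 0.05 and the dotted line is the median of all tested probe sets. Plk1 (-1.15) is the filled point, and 28 of 36 points lie below 0, against 8788 of all 18625 tested probe sets.

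Among the other cell cycle genes RU486 called 3 of 30 regulators, 1 of 30 mitotic genes and 0 of 30 replication genes (1 at an unadjusted p below 0.05 in limma), against 4.02% of all tested. As means over the 4 backgrounds, Pttg1, securin, differed by -0.62 with RU486 (adjusted p = 0.017) and Cdkn1a by -0.83 (adjusted p = 1.3e-05). Cdkn1b differed by 0.30 and Btg1 by 0.31. These means include the 3 ligand backgrounds. With vehicle in the second experiment, Cdkn1a had signals of 12.42 without and 13.05 with RU486. There Cdkn1b had 23.22 and 21.04, and Btg1 had 91.77 and 102.9. RU486 alone against vehicle called 0 of the 36 genes (0.129% of all tested), with a median of -0.15. At an unadjusted p below 0.05 in limma it had 4 genes (11.1%, against 6.75% of all tested): Plk1 (-1.09), Mcm5 (-0.79), Fen1 (-0.64) and Prc1 (-0.55). The mean ligand response with RU486 against that without called 0 of 36 genes (1.09% of all tested), and Mcm7 (-0.42, adjusted p = 0.62) was the 1 gene past an unadjusted p of 0.05 in limma. In the same comparison the fitted difference was -1.11 for Cdkn1a (adjusted p = 0.00088) and -2.72 for Fkbp5.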

How the data were processed

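Total RNA of 12 cultures was hybridised to Affymetrix arrays. The authors deposited linear intensity values made with MAS5 per the submitters' processing notes; tested on the file, every array's column had a median of 1. No presence calls were used, and the number of arrays limits the precision.

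Of 31099 probe sets 57 controls were set aside, and 0.0696 (the pseudocount, at the 10th percentile of the values) was added before log2, so a fold change is on the log2(value + pseudocount) scale and understates the change of low genes. Probe sets with a mean above the 40th percentile were tested (18625 of 31042). Names came from the array annotation: 20826 probe sets had 1 symbol, 436 several and 9780 none listed; no gene was named from a probe set with several. The arrays entered 1 model (limma 3.58.1, R 4.3.3; lmFit, eBayes with trend) with 8 groups and the experiment as a block, giving 3 residual and 12.2 prior degrees of freedom. A gene was called below 0.05 after Benjamini-Hochberg adjustment; intervals cover 95%. The labels name the experiment of each array. Deviations from group means of arrays of the same experiment correlated at 0.512 to 0.567 between groups, so the experiments pair the arrays and the block was kept.

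The 36 genes and the lists were chosen with earlier results of these data known. Signals on every array are given for called genes (up to 12 per comparison, by size) and the 4 of highest mean signal; uncalled genes beside them and those whose RU486 arrays stood apart were chosen after their values were seen. Other cell cycle genes are named as the called ones with the largest change, up to 4 per list and direction, beside 7 fixed names. Markers, promoter sequences and elements came from fixed lists and RefSeq (GRCr8). Alternatives were the pseudocount, filter, scaling, block, trend, the choice of probe set and leaving out each array.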

Additional observations from a re-analysis of the deposited data

How the results depend on the processing

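The count of the set lower in the second experiment stayed within 1.5 times its value of 32 under every alternative run. It was 28 with trimmed-mean scaling, 23 of the 25 genes kept by a filter at the 60th percentile, and 30 to 31 with an array left out. Of the 32 genes, 27 were called under every alternative that tested them; Aurka, Plk1, Cdc20, Tyms and Fen1 were not. No fit without the block was possible for this comparison, because the experiment is the term tested.

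For CVZ the count of 1 gene became 0 without a filter on low signal, 0 without a mean-variance trend and 0 without the replicate block, and was 0 to 1 with an array left out. The share of lower among all CVZ calls was 40.1% with the deposited scaling, 48.0% with quantile normalization and 50.8% with trimmed-mean scaling. For RU486 the count of 1 became 3 with a filter at the 60th percentile, 4 with quantile normalization and 2 with trimmed-mean scaling. It became 0 without the replicate block and 0 without the trend. It was also 0 in the second experiment alone, where the fit used the CVZ, COR and ALD backgrounds only. The count also depended on which array was left out. The genes gained were Cdk1, Mcm5 and Prc1. For the other comparisons 0 genes were called under every alternative, with or without the block, and 0 results reversed. With single RU486 arrays and 2 arrays per ligand, differences of the size seen for Cdk1 with RU486 passed the threshold under some settings and not others; the cause was not tested.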
